A study of Mus musculus with 4 samples.

Results

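Alveolar macrophages are phagocytes that live on the surface of the lung alveoli. The resting gene expression of these cells was read from the 2 libraries of untreated BALB/c wild-type mice, out of the 4 libraries of a study that also sampled alveolar macrophages of mice with lung metastases. Both libraries carry the same strain, genotype and cell type in their labels and differ only by replicate number. The labels do not say whether replicates 1 and 2 came from separate mice, from pools or from 1 preparation, so a spread between them may be technical. How the cells were collected from the lung, and how pure they were, the labels do not say. The method was serial analysis of gene expression (SAGE), in which the enzyme NlaIII cuts cDNA at CATG and a second enzyme releases the 21 bases that follow as a tag. By design a transcript gives 1 tag, whatever its length. The 2 libraries held 1962569 and 2198563 counts, and the counts of all tags of a deposited gene symbol were summed and scaled to a library of 1000000 counts (CPM). Replicate 1 had counts for 5615 genes and replicate 2 for 5859. In all 6676 genes were counted in at least 1 of them, against 7236 in any of the 4 libraries of the study.

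Alveolar macrophages take up inhaled particles, dead cells and surplus surfactant, the lipid and protein film that lowers surface tension in the alveoli. Uptake delivers this cargo to lysosomes, where a proton pump acidifies the lumen and acid proteases, glycosidases and lipases digest it. Colony-stimulating factor 2 (GM-CSF) from the alveolar epithelium drives the transcription factor PPAR gamma, which sets the lipid-handling program of these cells in the mouse. Lectins, Fc receptors and their signalling adaptor chains sense particles and antibody, while lysozymes and other secreted proteins act on microbes in the airway lining.

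The tags behind the most abundant genes are printed first, since a gene's value in SAGE is the count of 1 or a few such sequences. Capitals mark the NlaIII site and lower case the 21 bases counted.
Ctsd: CATGcctcagcctggggtagaggta
Trf: CATGccctgaggggttggggctaac
Laptm5: CATGtgttctatggtggcagcaagg
Tyrobp: CATGggggctctggagccctcctgg
Atp13a2: CATGctggacactggatctccctgc
Clec4n: CATGaagagcaagccagggagcatc
On GRCm38, by a match to GENCODE M21 transcripts, the Ctsd tag lies at chr7:142376016-142376040 on the minus strand, in the 3′ UTR of exon 9 of 9. It made up 97.3% of all Ctsd counts. The tags of Trf (chr9:103208945-103208969, minus strand), Laptm5 (chr4:130935936-130935960, plus strand), Atp13a2 (chr4:141007095-141007119, plus strand) and Clec4n (chr6:123246890-123246914, plus strand) also lie in the 3′ UTR of the last exon. The Tyrobp tag (chr7:30413838-30413862, plus strand) instead lies across the border of UTR and coding sequence in exon 1 of 5, and it is still the last CATG of that transcript. Each of these 6 tags matched the transcripts of 1 gene.

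Other abundant tags do not name a single gene, or sit apart from the end of the transcript.
Eef1a1: CATGaggcagacagttgctgtgggt
Lyz1: CATGtgtcagtctgtttaacccttg
Lyz2: CATGaagactctcctgactctggga
Cebpb: CATGgcggccggtttcccgttcgcc
The Eef1a1 tag (chr9:78478815-78478839, minus strand, coding sequence of exon 8 of 8) matched transcripts of 13 genes, most of them with clone-based or predicted names. The tag deposited as Lyz1 (chr10:117287981-117288005, minus strand, 3′ UTR of exon 4 of 4) matched Lyz1 and Lyz2, so the counts of these 2 lysozyme genes cannot be separated there. The main tag deposited as Lyz2 matched Lyz2 alone and lies in exon 1 of 4 (chr10:117282219-117282243, minus strand), at an earlier CATG of the transcript. The Cebpb tag lies in the coding sequence of the only exon of that gene (chr2:167689474-167689498, plus strand).

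The label was set beside 27 markers of alveolar macrophages, a list chosen with earlier results of these data known and so not an independent check. All 27 had listed tags, 26 were counted and 19 reached a mean of 20 CPM. Csf2ra and Csf2rb, the 2 chains of the GM-CSF receptor, were at 287 and 339 CPM and at 31.6 and 123 CPM in replicates 1 and 2. Pparg, the transcription factor named above, was at 17.3 and 35.9 CPM. Siglecf, the sialic acid-binding lectin used to sort these cells (deposited as Siglec5), was at 28.5 and 41.4 CPM, and Itgax, the integrin chain CD11c, at 68.3 and 83.2 CPM. These 5 receptor and regulator genes were counted in both libraries, at low to moderate levels.

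The more abundant markers were Cd9, a tetraspanin, at 1144 and 2074 CPM, and Abcg1, a cholesterol exporter (deposited as WHITE), at 843 and 972 CPM. Chil3, a chitinase-like lectin (deposited as Chi3l3), was at 342 and 1329 CPM, and Ear2, an eosinophil-associated ribonuclease, at 240.5 and 922 CPM. Krt79, a keratin that marks these cells in the mouse lung, was at 341 and 234 CPM. The cytokine Il18 was at 119 and 260 CPM, Plet1 (deposited as 1600029D21Rik) at 105 and 156 CPM and Krt19 at 30.1 and 139 CPM. Of these 8 markers, Krt79 alone was higher in replicate 1.

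Lipid genes of the marker list were also counted. Fabp1, a fatty acid-binding protein, was at 54.5 and 213 CPM, Lpl, the lipoprotein lipase, at 28.5 and 81.0 CPM, and Atp6v0d2, a proton pump subunit, at 54.5 and 155 CPM. F7, coagulation factor VII, was at 6.62 and 53.2 CPM, Car4, a carbonic anhydrase, at 6.62 and 34.6 CPM and Ear1 at 7.13 and 34.1 CPM. The other counted markers stayed below a mean of 20 CPM. In counts of replicates 1 and 2, Fabp5 had 8 and 24, Mrc1, the mannose receptor, 17 and 38, Olr1 32 and 22, Flvcr2 16 and 30, Ctsk, the protease cathepsin K, 7 and 33, and Cidec, a lipid droplet protein, 4 and 30. Marco, a scavenger receptor that is a common surface marker of these cells, had 2 and 0 counts in its 1 listed tag. Fabp4 was listed at 0 in both libraries, also with 1 listed tag. No tag has a count of 1 in either library, so a listed 0 can stand for 0 or 1 reads of that tag, and a 0 in a SAGE table can also come from a tag that the table does not list.

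**Figure D1:**
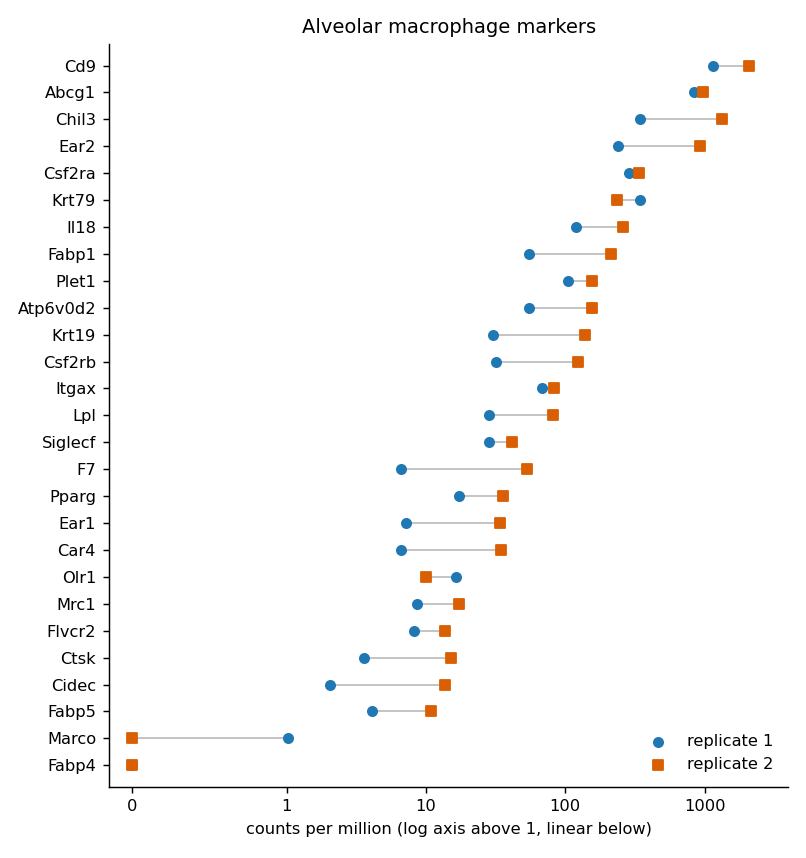
CPM of the 27 alveolar macrophage markers in replicate 1 (circles) and replicate 2 (squares) of untreated mice, ordered by their mean; each point is 1 library and the axis is logarithmic above 1. Cd9 stands at 1144 and 2074 CPM at the top and Fabp4 at 0 in both libraries at the bottom, and 23 of 27 markers lie higher in replicate 2.

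The Ear genes are a family of near-identical ribonucleases, so their tags are printed to show what tells them apart.
Ear2, main tag: CATGtcctcgtgaaacctgtcactt
Ear1: CATGggtccgaagctgcttgagtcc
Ear2, upstream tag: CATGggtccgaagctgcttgagtct
The main Ear2 tag (chr14:44103451-44103475, plus strand, 3′ UTR of exon 2 of 2) held 89.8% of the Ear2 counts and matched transcripts of both Ear1 and Ear2. The Ear1 tag (chr14:43819386-43819410, minus strand, exon 2 of 2) matched Ear1, Ear6 and the pseudogene Ear-ps9, with 14 and 71 counts. The upstream Ear2 tag (chr14:44102886-44102910, plus strand) differs from it by C25T, counted from 1 at the first base of CATG, and had 13 and 80 counts. Counts of Ear1 and Ear2 are thus uncertain as single genes, and their sum is mostly 1 shared tag.

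Markers shared by macrophages at large showed 1 very abundant gene and several scarce ones. Tyrobp, the adaptor chain DAP12 that carries signals of activating receptors, was at 15000 and 27714 CPM. Lyz2 was at 532 and 1687 CPM, Cd68, a lysosomal glycoprotein, at 146 and 413 CPM, and Spi1, the lineage factor PU.1 (deposited as Sfpi1), at 120 and 184 CPM. In counts, Csf1r, the receptor of colony-stimulating factor 1, had 15 and 44, Adgre1, the F4/80 antigen, 27 and 23, Cd14 12 and 6 and Fcgr1 11 and 7. Mertk, a receptor for dead cells, was listed at 0 in both libraries, and Fcer1g had no listed tag, so its level is not known here. These values and all below are shares of a bulk library, in which fewer cells of a type and less RNA per cell cannot be told apart.

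A further 13 marker lists, of other macrophage kinds and of other cells of lung and blood, were read in the same way. Among the listed markers of interstitial or monocyte-derived macrophages, the 3 complement C1q chains (C1qa, C1qb and C1qc), Ccr2, Cd163, Folr2 and Lyve1 were at 0 in both libraries. Of the 4 counted, Apoe, a lipid-transport protein, was highest at 29.6 and 87.3 CPM. Ms4a7 had 30 and 17 counts, Trem2 10 and 26 and Ly6c2 4 and 39. The listed markers of these macrophages summed to 52.0 CPM in replicate 1 and 125 CPM in replicate 2. The listed markers of dendritic cells (2), endothelial cells (6), fibroblasts or smooth muscle (11, among them Col1a1, Col3a1 and Dcn) and mesothelial cells (1) were all at 0 in both libraries. Of the 5 listed B-cell markers, Cd22 alone was counted, with 0 and 3 counts. Of the 4 listed markers of eosinophils, mast cells or basophils, Prg2 alone was counted, with 2 and 0. The 4 listed markers of alveolar type 2 cells summed to 7 and 25 counts and the 5 of type 1 cells to 0 and 3.

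Signals of 4 other lists were low but unequal between the libraries. The 7 listed neutrophil markers summed to 11.2 CPM in replicate 1 and 174 CPM in replicate 2. Of these, Camp, the cathelicidin, had 19 and 343 counts, S100a9 had 0 and 30, and Mmp9 and Cxcr2 were at 0. The 8 listed markers of red cells or platelets summed to 34.1 and 171 CPM, with 67 and 365 counts for Hba-a1, an alpha globin, while Alas2, Hba-a2, Hbb-b2, Gp9 and Itga2b were at 0. Among 6 listed markers of T or NK cells, Cd2 alone was counted, at 65.7 and 144 CPM, with Cd3d, Lck, Thy1, Nkg7 and Gzma at 0. Among 5 listed markers of club or ciliated cells, Tppp3, a tubulin-binding protein, was at 88.7 and 216 CPM, Scgb1a1 had 0 and 5 counts, and Foxj1, Cyp2f2 and Cbr2 were at 0. The alveolar macrophage markers summed to 3800 and 7359 CPM, and no list of cells other than macrophages summed to more than 88.7 and 218 CPM. Replicate 2 was the higher library in each of these 4 lists, and the part of other cells in the difference between the libraries was not tested.

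A few genes made up most of each library. In replicate 1 the 7 most abundant genes held 50% of the counts and 334 genes held 90%, and in replicate 2 it took 9 and 370 genes. The 10 most abundant genes held 55.1% and 51.3%, the 100 most abundant 79.7% and 77.5%. The libraries shared 7 of their top 10 genes, 20 of their top 25, 78 of their top 100 and 829 of their top 1000.

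Ctsd, which encodes the aspartic protease cathepsin D of lysosomes, was first in both libraries, with 24.9% of counts in replicate 1 and 22.4% in replicate 2. Its exact Clopper-Pearson 95% intervals were 24.87% to 24.99% and 22.37% to 22.48%. They cover counting error only, since copies made in PCR were not told apart. No other gene that could be placed held more than 4.30% in either library. Gm3903 was number 2 in both, with 11.3% and 11.7%, but neither of the 2 tags deposited under that symbol matched a transcript after a CATG, so the gene behind these counts is not settled here. Trf, which encodes the iron carrier transferrin, was number 3 in both with 4.30% and 2.96%. The first 3 places were thus the same in the 2 libraries.

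The next places went to lysosome, translation and signalling genes. Eef1a1, the elongation factor that brings transfer RNA to the ribosome, held 3.05% and 2.67% by a tag shared with other genes. Laptm5, a membrane protein of lysosomes in blood cells, held 2.29% and 2.76%. Tyrobp held 1.5% and 2.77% and was number 10 in replicate 1 and number 4 in replicate 2. The share of Rpl37a, a ribosomal protein of the large subunit, was 1.59% and 2.14%, and that of Aldoa, the glycolytic enzyme aldolase A, 1.08% and 1.5%. Lamp1, a main glycoprotein of the lysosomal membrane, held 1.56% and 0.874%. Clec4n, the C-type lectin dectin-2 that binds fungal mannans, held 0.857% and 1.26%. For 2 genes of the top 10 the libraries were further apart. Atp13a2, a polyamine transporter of lysosomes, was at 27554 and 6451 CPM, and Rps2, a ribosomal protein of the small subunit with a tag that matched 30 genes, at 19014 and 8943 CPM.

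Places 13 to 25 by mean held a lysozyme, annexin, cytoskeleton, ribosome and trafficking genes. Lyz1 was at 5601 and 12024 CPM, and Anxa5, a calcium-dependent protein that binds phosphatidylserine, at 7034 and 7875 CPM. Prr13, a proline-rich protein, was at 3775 and 11002 CPM. Vim, the intermediate filament vimentin, was at 7936 and 5632 CPM, and Arpc1b and Arpc5, subunits of the actin-branching Arp2/3 complex, at 4486 and 8840 CPM and at 5886 and 4321 CPM. Man2b1, lysosomal alpha-mannosidase, was at 8263 and 4168 CPM, Atp6v0b, a proton pump subunit, at 6088 and 4294 CPM, and S100a11, a small calcium-binding protein, at 4012 and 7893 CPM. The ribosomal genes Rpl14, Rpl38 and Rpl24 stood between 5068 and 7377 CPM in the 2 libraries. Ap2m1, the cargo-binding subunit of the clathrin adaptor AP-2, was at 5982 and 2170.5 CPM. Differences of up to 2.91-fold between libraries occurred in this range of ranks, so the order of neighbours in it did not hold beyond the spread between libraries.

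**Figure D2:**
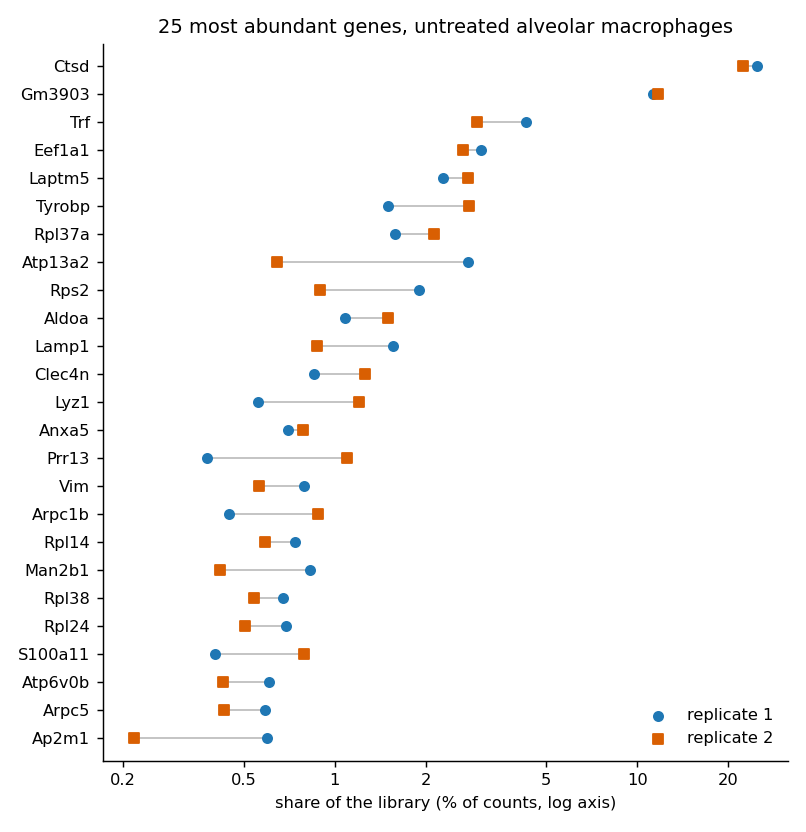
Share of all counts, in percent on a logarithmic axis, of the 25 genes of highest mean in replicate 1 (circles) and replicate 2 (squares) of untreated mice; each point is 1 library. Ctsd holds 24.9% and 22.4%, while Atp13a2 has the widest gap, with 2.76% and 0.645%.

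Function was described with 33 gene lists, each gene counted in 1 list only. They held 60.9% and 62.7% of the counts. Unlisted genes other than Gm3903 held 27.8% and 25.6%. Of the 25 most abundant genes 21 were in a list, and Gm3903, Trf, Atp13a2 and Prr13 were not. To read how alike the libraries were, a list is set beside the background over all 1567 genes with a mean of at least 20 CPM. Of these, 22.3% were at least 2-fold higher in replicate 2, 14.9% at least 2-fold higher in replicate 1 and 37.2% either way, on values of CPM plus 1, and their median log2 ratio of replicate 2 over replicate 1 was 0.12. A gene below 20 CPM in 1 library can reach that mean through the other, so no list count below is free of this filter.

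Lysosome genes took the largest share of any function. The 17 counted lysosomal proteases held 25.3% and 22.9% of counts (24.1 ± 1.65%, mean ± SD, n = 2), nearly all of it Ctsd. Ctsb and Ctss, the cysteine proteases cathepsin B and S, were far lower, at 1351 and 1782 CPM and at 1016 and 1434 CPM, and Tpp1, tripeptidyl peptidase 1, was at 410 and 403 CPM. Of 9 proteases of at least 20 CPM, 4 were 2-fold higher in replicate 2 and 0 in replicate 1. The background over all genes was 22.3% and 14.9%. The median log2 ratio of the 9 proteases was 0.92, although the summed share was lower in replicate 2.

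Other lysosomal hydrolases, membrane proteins and proton pump subunits added 6.11% and 5.71% (5.91 ± 0.277%, n = 2), led by Laptm5, Lamp1, Man2b1 and Atp6v0b. This share and its SD leave out lysosomal genes that are in no list, which were not gathered in full. Those named here, Atp13a2, at 2.76% and 0.645%, and Ppt2, at 0.261% and 0.0655%, were higher in replicate 1. Of 41 genes of the list of at least 20 CPM, 15 were 2-fold higher in replicate 2 and 3 in replicate 1. The background over all genes was 22.3% and 14.9%. The median log2 ratio of the 41 was 0.76. The 3 leading genes after Laptm5 went the other way, at log2 ratios of -0.84, -0.99 and -0.50. The sum of the list and its median member thus differed in sign between libraries.

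The protein synthesis lists came next. Cytosolic ribosomal proteins held 8.49% and 7.59% (8.04 ± 0.631%, n = 2) over 70 counted members, and translation factors 3.60% and 3.22%, most of it Eef1a1. Eif3h and Eif3f, subunits of initiation factor 3, were at 1447 and 1239 CPM and at 913 and 600.4 CPM, and Eef2, the translocation factor, at 728 and 903 CPM. Of 58 ribosomal genes of at least 20 CPM, 11 were 2-fold higher in replicate 2 and 1 (Rps2) in replicate 1, against a background of 22.3% and 14.9%. When only tags that matched 1 gene were counted, the ribosomal share was 1.73% and 1.76%, so most of its counts rest on tags that also match other genes or copies. The list takes in the deposited symbol "G protein", which joins several genes and of which Rack1 gave 51.2%. Counted by current gene names, the ribosomal share was 8.44% and 7.53%. Mitochondrial ribosomal proteins held 0.279% and 0.274%.

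Lists of energy metabolism each held between 1% and 2% of counts. Enzymes of glycolysis, the pentose phosphate route and the citrate cycle held 1.53% and 1.95%, most of it Aldoa, followed by Pgd, which makes NADPH, at 1749 and 1473 CPM and Taldo1, transaldolase, at 351 and 754 CPM. The deposited symbol "NADP+" joins Idh1 and Idh2, and 99.6% of its 1533 and 944 CPM were Idh1, which encodes the cytosolic isocitrate dehydrogenase. The respiratory chain and ATP synthase held 1.06% and 1.42% over 74 counted genes, with Atp5c1, Ndufa2, Ndufa3 and Uqcrc1 between 1291 and 2776 CPM. Of 38 such genes of at least 20 CPM, 12 were 2-fold higher in replicate 2 and 0 in replicate 1. The background over all genes was 22.3% and 14.9%. Antioxidant enzymes held 0.538% and 0.677%, led by Gpx4, which reduces lipid peroxides, at 2945 and 3653 CPM, with Prdx1 at 815 and 1105 CPM.

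Actin and its regulators held 2.80% and 3.81%. Actb, beta-actin, was at 2285 and 5820 CPM, which by its mean is below Vim and Arpc1b. Of 35 genes of this list, 16 were 2-fold higher in replicate 2 and 1 in replicate 1, against background shares of 22.3% and 14.9%. The 16 include Ezr, ezrin, at 17.8 and 293 CPM, which passed the filter of 20 CPM mean through replicate 2. Endosome and vesicle traffic leaned to replicate 1. It held 1.84% and 1.19%, and of 52 genes 13 were 2-fold higher in replicate 1 and 7 in replicate 2, with a median log2 ratio of -0.51. Its leading genes were Ap2m1, given above, Arf5, a small GTPase of the Golgi, at 3736 and 2744 CPM, Sec61b, a subunit of the protein channel of the endoplasmic reticulum, at 655 and 717 CPM, and Vps52, a tethering factor, at 1012 and 266.5 CPM.

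Receptors and sensors were a small part of the library apart from their leading genes. Fc receptors, complement and adaptor chains with an immunoreceptor tyrosine-based activation motif (ITAM) held 1.59% and 2.98%, of which Tyrobp alone was 1.5% and 2.77%. Fcgr3, an activating receptor for IgG, was at 373.5 and 1522 CPM, Syk, the kinase that ITAM adaptors recruit (deposited as Sykb), at 280 and 175 CPM, and Fcgrt, the neonatal Fc receptor, at 87.1 and 180 CPM. Scavenger receptors, lectins and pattern receptors held 0.916% and 1.37%, of which Clec4n was 0.857% and 1.26%. Axl, a receptor for dead cells, followed at 299 and 468.5 CPM, Clec2d at 116 and 243 CPM and Clec4a3 at 23.4 and 65.9 CPM. In each of these 2 lists 1 gene thus held over 90% of the counts.

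Secreted and host-defence genes leaned to replicate 2. Lysozymes, chitinase-like proteins and secreted ribonucleases held 0.675% and 1.60%. This share was 0.122% and 0.429% with tags matching 1 gene only, and 0.0417% and 0.175% with last-site tags only. The 6 members of at least 20 CPM mean were 2-fold higher in replicate 2, against 22.3% of all genes. Of these 6, Ear1 and Rnaset2b passed that filter through replicate 2 alone. Protease inhibitors and matrix metalloproteinases held 0.0622% and 0.197%. The 4 members of at least 20 CPM mean were all 2-fold higher in replicate 2, against 22.3% of all genes. Of these 4, Cstb and Plaur passed that filter through replicate 2 alone. Cst3, cystatin C, was at 447 and 1123 CPM, Slpi, the secretory leukocyte protease inhibitor, at 108 and 697 CPM, Cstb, cystatin B, at 17.8 and 78.7 CPM, and Plaur, the urokinase receptor, at 11.7 and 34.1 CPM. Chemokines, cytokines and growth factors held 0.156% and 0.355%. Ccl6 was at 907.5 and 1718 CPM, Spp1, osteopontin, at 276 and 1333 CPM and Il16 at 202 and 168 CPM. Genes of lipid mediators held 0.0821% and 0.193%, led by Ltc4s, the leukotriene C4 synthase, at 734 and 1619 CPM. Alox5ap, the 5-lipoxygenase activating protein, was at 34.1 and 165 CPM, and Alox5 itself at 15.3 and 25 CPM.

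Galectins, annexins and S100 proteins held 1.21% and 1.86%. Below Anxa5 and S100a11 came Anxa2 at 522 and 1591 CPM and Lgals3, galectin-3, at 241.5 and 650.0 CPM. Integrins, tetraspanins and adhesion genes held 0.365% and 0.611%. Selplg, a selectin ligand, was at 271 and 1450 CPM, while Itgb5, the integrin beta-5 chain, was at 742 and 306 CPM and Tspan31 at 375 and 141 CPM. The direction of the difference between libraries was therefore not shared by all surface genes.

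Lipid genes were counted at moderate levels. Lipoprotein and cholesterol handling held 0.333% and 0.5%. It was led by Pltp, the phospholipid transfer protein, at 1522 and 3001 CPM, with Abcg1, Soat1, which makes cholesterol esters, at 720 and 673 CPM and Scarb1, the HDL receptor, at 58.6 and 117 CPM. Plin2, which coats lipid droplets, was at 732 and 863 CPM, and Pnpla2, the lipase that opens them, at 320.5 and 397 CPM. Sterol and fatty acid synthesis was among the smallest lists, at 0.0241% and 0.0215%, with Nsdhl at 45.3 and 30.5 CPM and Srebf2, the regulator of sterol synthesis, at 38.7 and 24.1 CPM.

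Iron storage and antigen presentation were each carried by few genes. In the iron and haem list (0.192% and 0.545%) Fth1, ferritin heavy chain, was at 1720 and 5009 CPM and Ftl1, ferritin light chain, at 65.2 and 261.5 CPM. Trf was not in that list. MHC class II genes held 0.447% and 0.419%, or 0.179% and 0.121% with last-site tags only. H2-DMa, which edits the peptides bound to class II, was at 3066 and 3153 CPM and differed little between libraries. H2-Eb1, a class II beta chain, was at 1342 and 744 CPM, and Cd74, the invariant chain, had 129 and 644 counts. MHC class I and peptide loading held 0.0251% and 0.0678%, with H2-D1 at 166 and 444 CPM, Tapbp, tapasin, at 67.3 and 105.5 CPM and B2m, the class I light chain, at 2 and 136 counts. None of these 3 genes had its main tag at the last CATG. Among all genes of at least 20 CPM mean that matched a transcript, 71.8% did.

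The macrophage transcription factors were dominated by 1 gene. The list held 0.736% and 0.264%. The deposited symbol "C/EBP" joins Cebpa, Cebpb, Cebpd and Cebpg, and Cebpb, a factor of macrophage activation and maturation, gave 98.7% of it, at 6241 and 1602 CPM. Jund, a subunit of AP-1, was at 577 and 332 CPM, and Klf4 at 176 and 60.0 CPM. Of 10 members of at least 20 CPM, 4 were 2-fold higher in replicate 2 and 2 in replicate 1. The background over all genes was 22.3% and 14.9%. The median log2 ratio of the 10 was 0.68, while the sum of the list was lower in replicate 2. Receptors of colony-stimulating factors, TGF-beta and cytokines held 0.0840% and 0.104%, led by Csf2ra. Il10rb was at 269 and 144 CPM and Ifngr1, the interferon gamma receptor, at 50.4 and 79.1 CPM.

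The lists of proliferation and interferon response were small. The cell cycle and DNA replication list had the smallest share, 0.00754% and 0.0107% (148 and 235 counts over 16 counted genes). Tubb5, a tubulin, led it with 58 and 118 counts, followed by Tk1, thymidine kinase, with 75 and 51, Stmn1 with 0 and 11 and Pcna, the sliding clamp of replication, with 0 and 10. Ccnd2, cyclin D2, is in no list and had 27 and 624 counts, more in replicate 2 than the whole cell cycle list. Interferon-inducible genes held 0.0297% and 0.0349% over 15 counted of 46 listed genes. Ifitm1 was at 120 and 122 CPM, Stat2 at 75.4 and 28.7 CPM and Ifi30, a lysosomal thiol reductase, at 9.68 and 67.8 CPM.

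The remaining lists covered protein handling, chromatin and transport. Chaperones held 0.733% and 0.922%, with Hspa8, a constitutive heat shock protein, at 1330 and 1821 CPM and Hsp90ab1 at 243 and 1304 CPM. Proteasome and ubiquitin genes held 0.471% and 0.547%, with Skp1 (deposited as Skp1a) at 1643 and 2069 CPM and Psma1 at 775 and 1022 CPM. Solute carriers held 0.606% and 0.513%, led by Slc25a11, a mitochondrial carrier, at 3016 and 1528 CPM. Splicing factors held 0.304% and 0.281%, and histones and chromatin proteins 0.269% and 0.358%. Fatty acid uptake, binding and storage held 0.119% and 0.165%.

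**Figure D3:**
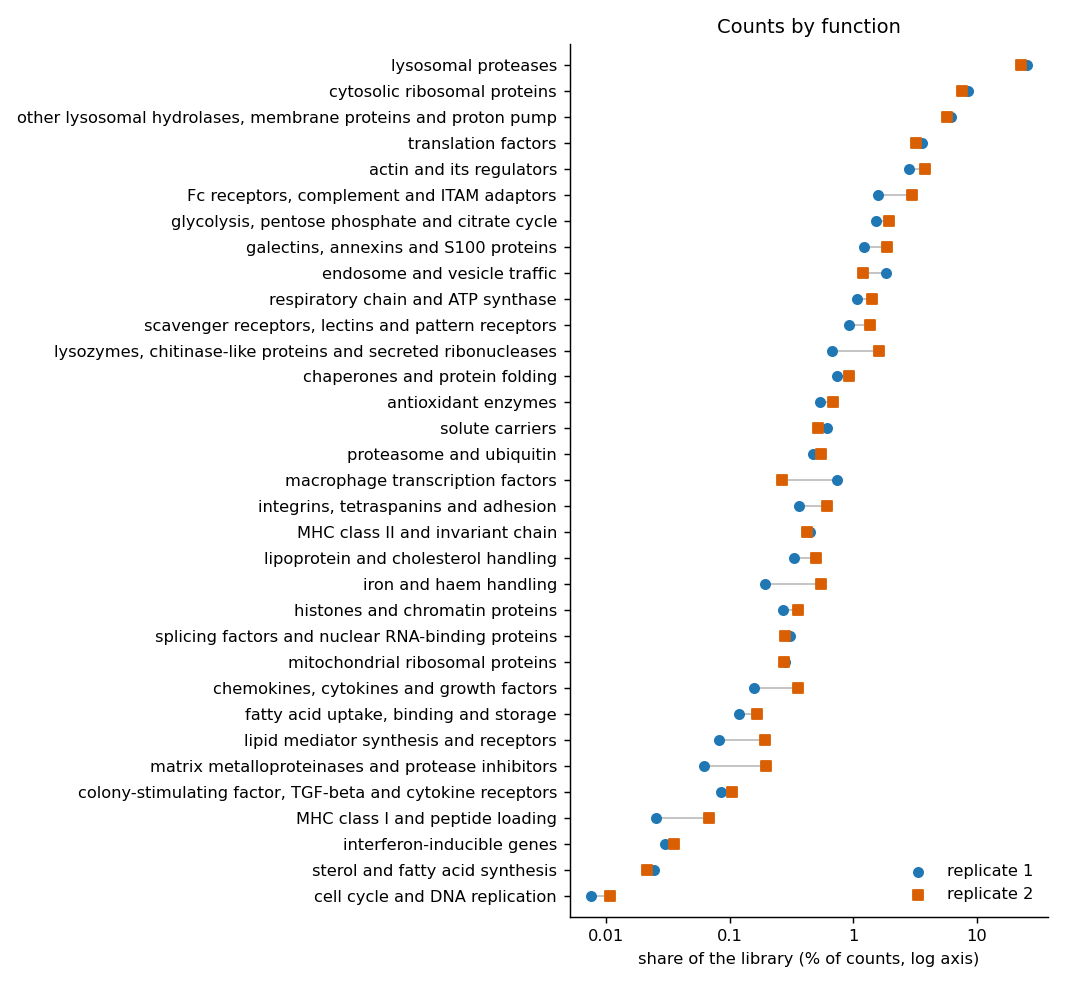
Share of all counts, in percent on a logarithmic axis, of 33 function lists in replicate 1 (circles) and replicate 2 (squares) of untreated mice; each point is 1 library. Lysosomal proteases hold 25.3% and 22.9% at the top and cell cycle genes 0.00754% and 0.0107% at the bottom, and the gaps are wide for macrophage transcription factors (0.736% and 0.264%) and for iron and haem handling (0.192% and 0.545%).

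The 2 libraries were alike in order and unlike in detail. Across 1567 genes of at least 20 CPM, which are not independent replicates, Pearson's r of log2(CPM + 1) was 0.847 and Spearman's rho 0.761. A median gene of 20 to 50 CPM differed 1.81-fold between the libraries, where counting alone would give 1.14-fold. At 1000 CPM or more the median was 1.39-fold, against 1.01-fold from counting. The share of genes at least 2-fold apart fell from 40.5% to 38.0%, 33.5% and 22.2% over the bins from 20, 50, 200 and 1000 CPM. In each of these 4 bins the spread was larger than counting error, which leaves out the variation of separate library preparations and of PCR. Genes seen in 1 library only were scarce ones, 817 in replicate 1 with at most 27 counts and 1061 in replicate 2 with at most 36 counts.

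The largest ratios among genes of at least 100 CPM mean were named in each direction. Ccnd2, cyclin D2, had 27 counts in replicate 1 and 624 in replicate 2, a 19.3-fold difference on CPM plus 1. Ezr, ezrin, which links actin to the membrane, had 35 and 644, and Cd33, a sialic acid-binding lectin, 30 and 472. Grn, progranulin, had 316 and 3327 counts and Slpi 211 and 1532. In the other direction Akap13, an anchoring protein of protein kinase A, had 1026 and 167 counts and Trim28, a co-repressor of transcription, 1899 and 412. Atp13a2 had 54076 and 14182 counts, Rfng, a glycosyltransferase acting on Notch, 847 and 231 and Ppt2, a lysosomal thioesterase, 5117 and 1441. The ratios reached 19.3-fold toward replicate 2 and 6.81-fold toward replicate 1.

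**Figure D4:**
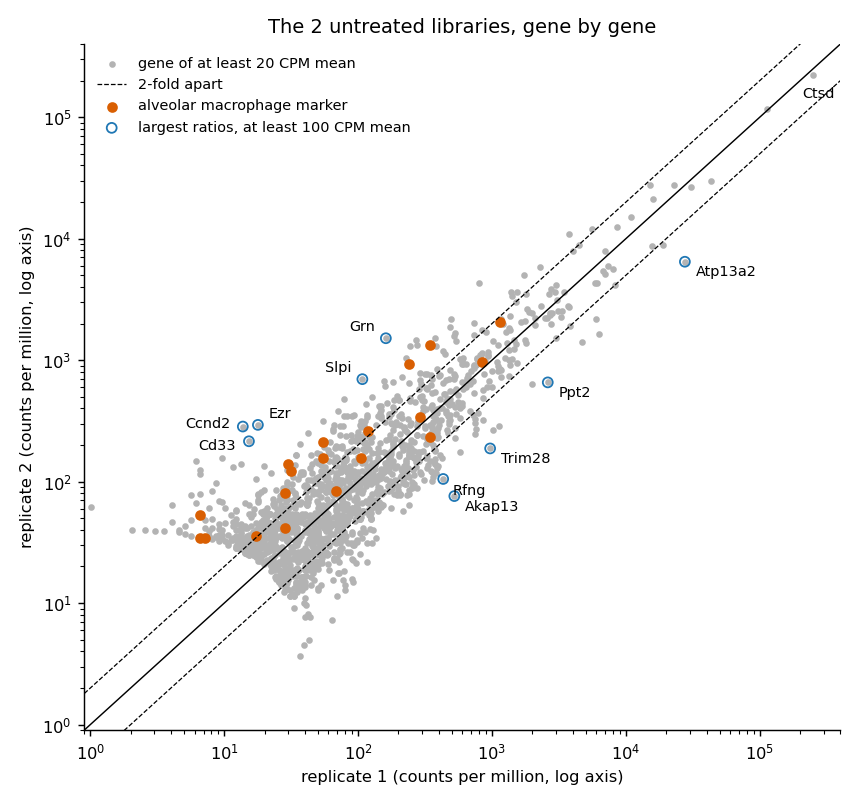
CPM of each gene of at least 20 CPM mean in replicate 1 (horizontal) and replicate 2 (vertical), both axes logarithmic, with lines for equal and for 2-fold different values; filled circles are the 19 alveolar macrophage markers of this level and open circles the named genes with the largest ratios. Markers lie on or above the line of equality except Krt79, and of the named genes Ccnd2, Ezr and Cd33 lie furthest above it.

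The alveolar macrophage markers leaned to replicate 2. Of the 19 markers of at least 20 CPM, 12 were 2-fold higher in replicate 2 and 0 in replicate 1, against 22.3% and 14.9% of all genes, and their median log2 ratio was 1.47. Of the 12, F7, Car4, Ear1 and Pparg were below 20 CPM in replicate 1 and reached the mean of 20 through replicate 2, so their place in the count is not free of that filter. Over all 27 markers, 23 had a higher CPM in replicate 2, 3 (Krt79, Olr1 and Marco) a lower one, and Fabp4 was at 0 in both. The general macrophage list summed to 15831 and 30034 CPM, most of it Tyrobp. Of its 8 counted members, 5 had a higher CPM in replicate 2, while Adgre1, Cd14 and Fcgr1 had a lower one. Among the 19 markers, 47.4% had their main tag at the last CATG of a transcript of the gene, against 71.8% of all genes of this level that matched a transcript. With tags at the last site only, 6 of 14 markers were 2-fold higher in replicate 2 and 0 in replicate 1, with a median log2 ratio of 0.82, against 19.6% and 15.2% of all 1273 genes of at least 20 CPM counted in that way. This count was added after the data were seen.

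Tags at an earlier CATG leaned more to replicate 2 than tags at the last CATG, and so did tags with no match in their own gene. In SAGE the tag at the last CATG is the one retained by design, and tags at earlier sites are also read. Tags that sat at the last site of their gene held 78.5% of counts in replicate 1 and 72.7% in replicate 2, and those at earlier sites 8.99% and 13.3%. Over all 1738 tags of at least 20 CPM, 25.3% were 2-fold higher in replicate 2 and 14.9% in replicate 1. Of 517 earlier-site tags of that level, 213 and 46 were, with a median log2 ratio of 0.68. Of 1131 last-site tags, 182 and 208 were, with a median of -0.15. Of the 40 tags that matched no transcript, 24 and 3 were, with a median of 1.21. Of the 50 that matched other genes only, 21 and 2 were, with a median of 0.63. In 177 genes with both kinds, the earlier tag leaned more toward replicate 2 in 118. In these genes the median log2 ratio was 0.41 for last-site tags and 0.93 for earlier ones. The median difference within a gene was 0.41.

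The library ratio also followed transcript length. For genes whose main tag was at the last site, the median log2 ratio of replicate 2 over replicate 1 was 0.60 for transcripts of up to 1000 bases, -0.19 for those of 1000 to 2000, -0.51 for those of 2000 to 4000 and -0.81 for longer ones. For main tags at earlier sites it went from 1.34 to 0.30 over the same classes. The GC content of the tag showed no such order, with medians between 0.09 and 0.30 over 5 classes. Ribosomal proteins (median transcript 744.5 bases, log2 ratio 0.51) and the respiratory chain (709 bases, 0.60), both lists of short transcripts, stood on the replicate 2 side in their medians. Transcript length did not order every list. The 5 interferon-inducible genes of at least 20 CPM, at a median of 980 bases, had a log2 ratio of 0.02. The endosome and vesicle list, at a median of 1883.5 bases, had a log2 ratio of -0.51, while actin and its regulators, at 1911 bases, had 0.95. The part of tag site and transcript length in the differences between the libraries was not tested.

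**Figure D5:**
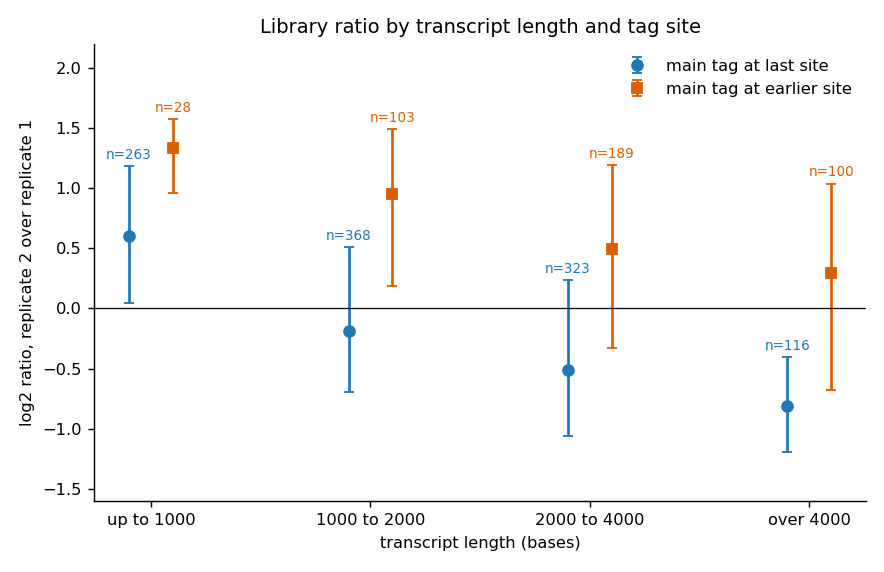
Median log2 ratio of replicate 2 over replicate 1 (points) with its lower and upper quartiles (bars) for genes of at least 20 CPM, by length class of the transcript matched by the main tag, for main tags at the last NlaIII site (circles) and at an earlier one (squares); n is the number of genes. The medians step down from 0.60 to -0.81 for last-site tags and from 1.34 to 0.30 for earlier ones.

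Tags of 2 genes with large ratios and of 2 alveolar macrophage markers show where such tags lie.
Grn: CATGgaggtgagctgccctgaagga
Ccnd2: CATGttcctagcttccaagctgaaa
Chil3: CATGaactttcctaaattgaatccc
Krt79: CATGgcttctcaggaccgcagaggc
The Ccnd2 tag (chr6:127148736-127148760, minus strand, coding sequence of exon 2 of 5) lies 5732 bases before the end of the transcript, at an earlier site, and had 27 and 618 counts in replicates 1 and 2. The Grn tag (chr11:102435078-102435102, plus strand, coding sequence of exon 9 of 13) lies 1259 bases before the end, at the last site, and had 148 and 2691 counts. The Chil3 tag (chr3:106147715-106147739, minus strand, 3′ UTR of exon 11 of 11) is at an earlier site 186 bases before the end, with 402 and 1841 counts. The Krt79 tag (chr15:101929657-101929681, minus strand, 3′ UTR of exon 9 of 9), the only listed tag of that gene, is at the last site and had 670 and 514 counts. Of these 4 tags, the one with more counts in replicate 1 was thus Krt79.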

How the data were processed

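SAGE tag counts of 2 untreated libraries were analysed. The authors deposited raw counts, per the file headers, as whole numbers for 30627 listed tags of 21 bases, each with a symbol and accession. Their build was mm9 per the submitters' processing notes. How tags were matched and filtered is not given in the sources used here. No tag has a count of 1, so no limit is given for a listed 0.

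Counts were summed per deposited symbol and divided by the library total (1962569 and 2198563). Current names for the lists came from the RefSeq accession of a gene's main tag (29346 tags by accession, 429 by symbol, 115 by older symbol and 737 left as deposited; RefSeq genes of GRCm38.p6). Tags behind a CATG were looked up in the GENCODE M21 transcripts of GRCm38, the source of all coordinates. "Last site" means the last CATG of at least 1 transcript of the gene. With 1 group no test was made. Values are CPM per library, mean ± SD (n = 2), exact Clopper-Pearson 95% intervals, which cover counting error only, and log2 ratios with a pseudocount of 1 CPM. A 2-fold ratio is the call, among genes of at least 20 CPM mean. Scripts were tested on simulated data. Python 3.11.15, pandas 2.3.3, scipy 1.17.1 and, for the scaling alternative alone, the TMM factors of edgeR 4.0.16 (R 4.3.3) were used.

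Named genes were the 25 of highest mean CPM, up to 4 leading members of each function list described, up to 2 of each cell marker list, all alveolar macrophage markers, and the 5 largest ratios in each direction among genes of at least 100 CPM mean. Further markers are named where a list's genes at 0 or its counted genes are given. The members, 33 function lists and 15 marker lists were chosen with earlier results of these data known. Alternatives changed gene names, tags counted, library total, filter, pseudocount and fold.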

Additional observations from a re-analysis of the deposited data

How the results depend on the processing

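No paired analysis was possible because the results describe 1 group of 2 libraries and come from no test. The top 10 genes held 53.2% of counts on average (51.3% and 55.1% in single libraries). This was 40.2% with Ctsd left out of the total and 48.4% with the Gm3903 tags left out. The lysosomal protease share was 24.1% (22.9% to 25.3% in single libraries). It was 33.2% with tags matching 1 gene only, 30.7% with last-site tags only, 27.2% without the Gm3903 tags and 0.535% without Ctsd, since these alternatives remove counts from the total or the list. Pearson's r was 0.847 and became 0.897 with no filter on low counts, where 1405 and 1403 genes were 2-fold higher in replicates 2 and 1. The share of genes apart between libraries was 37.2% at 2-fold, 62.3% at 1.5-fold and 6.25% at 4-fold. With TMM factors 312 and 261 genes were 2-fold higher in replicates 2 and 1, against 349 and 234. The other filters, pseudocounts, scalings and tag choices kept r between 0.815 and 0.875. The median log2 ratio of all earlier-site tags exceeded that of all last-site tags by 0.83, not paired by gene. It was 0.73 and 0.93 with tags of at least 10 and 50 CPM. The alternatives with last-site tags, with tags matching 1 gene (for r and function shares) and without the Gm3903 tags were chosen after seeing the data. With 2 libraries, the SD of any value rests on a single difference.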
